A study of Mus musculus with 16 samples.

Results

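The 8 genes Tcf7, Lef1, Bach2, Id3, Klf2, Il7r, Slamf6 and S1pr1 mark naive and stem-like T cells, and their transcripts were followed through tumour-infiltrating T cells. The first 5 encode transcriptional regulators and the last 3 surface receptors. They were chosen by name, taken by symbol from the count matrices, and are 8 of the 32285 genes listed there, each present in all 8 lanes. Single-cell RNA sequencing (10x droplets, 3′ version 3 chemistry) was run on CD45-enriched cells from B16 melanomas grown under the skin of C57BL/6J mice. Mice were implanted with 1000000 Bro4.1 B16 cells, either unmodified controls or lacking B2m, the gene for the MHC class I light chain that is needed to show antigen to CD8 T cells. They then received 100 mcg of anti-CD40, or of rat IgG2a as isotype, by intraperitoneal injection on days 6, 9 and 12, and the tumours were collected on day 14. "Control" and "B2m-null" below refer to the tumour cells, as in the design text, although the sample labels attach the genotype to the mouse. All 4 groups thus share the host strain, the parental tumour line, the injection days and the CD45 enrichment, which keeps immune cells and leaves few tumour cells.

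TCF-1, the product of Tcf7, and LEF-1 are related DNA-binding factors that act in T cell development and keep mature T cells in a naive or memory-like state. In chronic infection and in tumours, a TCF-1-positive CD8 population, often carrying the adhesion receptor SLAMF6 and the regulator ID3, renews itself and gives rise to more differentiated cells. BACH2 is a repressor that restrains effector genes. IL-7R is the alpha chain of the receptor for IL-7, a survival signal of naive and memory T cells. KLF2 is a transcription factor of quiescent, circulating T cells that drives S1pr1, and the sphingosine 1-phosphate receptor made from S1pr1 lets T cells leave tissue for lymph and blood. Klf2, Il7r and S1pr1 are also used outside T cells, so that levels in other cells are given below.

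In the GENCODE vM21 annotation of GRCm38, Tcf7 lies on the minus strand of chr11:52252371-52283014 and Lef1 on the plus strand of chr3:131110471-131224356. Il7r is at chr15:9505788-9530176 on the minus strand, Slamf6 at chr1:171917515-171953170 on the plus strand and S1pr1 at chr3:115710433-115715072 on the minus strand. Bach2 (chr4:32238804-32586108), Id3 (chr4:136143497-136145755) and Klf2 (chr8:72319033-72321656) are on the plus strand. RefSeq promoter entries (GRCm38.p6, the 250 bases before a transcript start) were matched for 7 of the 8 genes, with 11 windows in all, and S1pr1 was not matched. Windows of 3 genes that were higher in CD8 T cells of control tumours under anti-CD40 are printed 5′ to 3′ so that the letters searched can be seen in place. Klf2 is shown at chr8:72318812-72319032 (plus strand, 221 bases, ended before the annotated gene start), Lef1 at chr3:131110047-131110296 and Slamf6 at chr1:171917212-171917461 (both plus strand, 250 bases). Capitals mark the letters CCACCC, searched as a KLF-type motif.
Klf2: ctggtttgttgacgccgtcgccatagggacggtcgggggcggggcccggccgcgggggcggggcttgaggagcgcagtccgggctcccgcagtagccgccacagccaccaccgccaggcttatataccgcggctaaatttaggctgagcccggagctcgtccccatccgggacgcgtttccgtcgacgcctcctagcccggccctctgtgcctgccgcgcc
Lef1: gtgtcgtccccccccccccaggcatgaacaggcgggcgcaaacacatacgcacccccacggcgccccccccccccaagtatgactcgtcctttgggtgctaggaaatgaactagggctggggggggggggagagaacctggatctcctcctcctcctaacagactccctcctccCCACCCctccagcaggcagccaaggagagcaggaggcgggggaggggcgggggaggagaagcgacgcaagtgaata
Slamf6: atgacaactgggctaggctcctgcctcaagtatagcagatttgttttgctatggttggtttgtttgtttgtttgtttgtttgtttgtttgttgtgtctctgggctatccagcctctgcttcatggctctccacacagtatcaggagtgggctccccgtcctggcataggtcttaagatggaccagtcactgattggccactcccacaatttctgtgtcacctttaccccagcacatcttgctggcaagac
On both strands, TGTTTAC (a FOXO-type motif) was in 3.17% and ATCAAAG (a TCF/LEF-type motif) in 3.21% of the 32851 windows of this length in the table, and neither was in any of the 11 windows of these genes. CCACCC was in 28.1% of all windows and was found in windows of Lef1, Id3, Klf2 and Tcf7, for Klf2 on the other strand in the bases after the printed stretch. GGAAGT, an ETS-type motif, was in 19.7% of all windows and in windows of Lef1, Tcf7 and Il7r. Lef1 has 4 windows and Tcf7 has 2, and a match in any of them was counted. The Slamf6 stretch holds a run of TTTG repeats and none of the 4 motifs. These matches describe letters and not occupied sites.

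The 8 lanes held 116552 cell barcodes. Counts are UMIs, unique molecular identifiers that each stand for 1 captured transcript, and a lane held between 46.0 and 99.3 times 1000000 of them. Hashtag antibodies, 1 per mouse, assigned 45.0% to 89.1% of a lane's barcodes, and 14858 barcodes (12.7%) were called hashtag doublets and left out. After filters 74181 cells of 16 mice remained: 5 with control tumours and isotype, 2 with control tumours and anti-CD40, 5 with B2m-null tumours and isotype, and 4 with B2m-null tumours and anti-CD40. These groups are called control isotype, control CD40 and so on. The 2 control CD40 lanes are technical repeats of 1 pool, so their counts were summed per mouse, and an effect of that pool and of the group cannot be told apart. In those 2 lanes the background of the 2 hashtags was in opposite order (median 183 and 49 counts against 31 and 176), while the mice took similar shares of the assigned cells (27.7% and 72.3% against 24.7% and 75.3%). Cells assigned to a hashtag had median counts of it of 345 and 348 against 54 and 1089, so hashtag 1 stood less far above its background. Whether the 2 hashtags mark 2 separate animals was not tested. Of all barcode sequences, 1649 occurred in more than 1 lane, 70 of them in both control CD40 lanes. Every other group came as 2 pools, and the labels list 3 hashtags per pool whereas 2 files hold 3 and 6 files hold 2.

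T cells were gated by their own transcripts: at least 2 UMIs of the Cd3 genes, few macrophage, melanoma, neutrophil or B cell transcripts and no Trdc, then Cd8a or Cd8b1 without Cd4 or Foxp3 (CD8 gate), Cd4 without Cd8 or Foxp3 (CD4 gate), or Foxp3 without Cd8 (regulatory T cell gate). None of the 8 genes was used. The gates held 13561 cells. In the CD8 gate 30 to 4428 cells per mouse were summed in 16 mice, and Cd4 and Foxp3 were at 0 by construction. A mouse entered a gate with at least 20 cells, which left 10 mice in the CD4 gate (4, 2, 1 and 3 in the order of the groups above) and 8 in the regulatory gate (5, 0, 2 and 1). Levels are CPM, UMIs per 1000000 UMIs of that mouse's gated cells. The CD8 gate of isotype-treated mice held cells with more UMIs. The median UMIs per cell were 5154 and 4085 in control and B2m-null isotype mice and 2108 and 2612 in control and B2m-null CD40 mice. In the same order, 59.3%, 47.1%, 23.5% and 33.2% of the cells had a UMI of Mki67 or Top2a, genes of dividing cells. These cells were not thinned and detection rises with depth, so the shares mix cycling and depth, and cycling at equal depth was not tested. Transcripts of mature dendritic cells (Ccr7, Fscn1 and Ccl22, all 3 detected) summed to 129 to 250 CPM (control) and 209 to 814 CPM (B2m-null) under isotype, and to 24.7 to 28.5 and 14.0 to 52.1 CPM under anti-CD40. All 8 macrophage markers were detected in the CD8 gate, at summed medians of 1703 and 1520 CPM under isotype and 1372 and 1622 CPM under anti-CD40. What these transcripts and the depth contribute to the values below was tested only where a restricted set of cells is named.

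Tcf7 and Lef1 were high in T and NK cells and low in B cells, macrophages and melanoma cells. Over all mice with enough cells, Tcf7 averaged 75.0 ± 42.2 CPM (SD, n = 16) in the CD8 gate, 73.7 ± 33.5 (n = 10) in the CD4 gate and 26.1 ± 15.02 (n = 8) in the regulatory gate. It was at 87.1 ± 53.8 CPM (n = 14) in NK cells and at 75.4 ± 24.4 (n = 10) in mature dendritic cells, against 7.49 in B cells, 1.02 in macrophages and 7.80 in melanoma cells. The NK, CD4, CD8 and mature dendritic cell means of Tcf7 lie within each other's SD. Lef1 averaged 43.0, 57.2 and 38.5 CPM in the CD8, CD4 and regulatory gates and 30.9 in NK cells, with 3.01 in B cells and 0.167 in macrophages. Bach2, which also acts in B cells, was highest in B cells at 52.5 CPM, above NK cells (24.7) and the CD8 gate (14.0). Klf2 was higher in B cells (490 CPM), macrophages (440) and plasmacytoid dendritic cells (430) than in the CD8 (182), CD4 (201) and regulatory (141) gates. Il7r was highest in plasmacytoid dendritic cells (335 CPM), mature dendritic cells (263) and the CD4 gate (254), and lowest in melanoma cells (3.11). Slamf6 was at 50.5 CPM in B cells and at 34.3, 43.1 and 42.4 in the 3 T cell gates, Id3 was between 4.12 and 20.8 in every gate, and S1pr1 was highest in the CD4 gate at 54.0. These averages pool treatments and were not tested between the non-T gates.

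**Figure D1:**
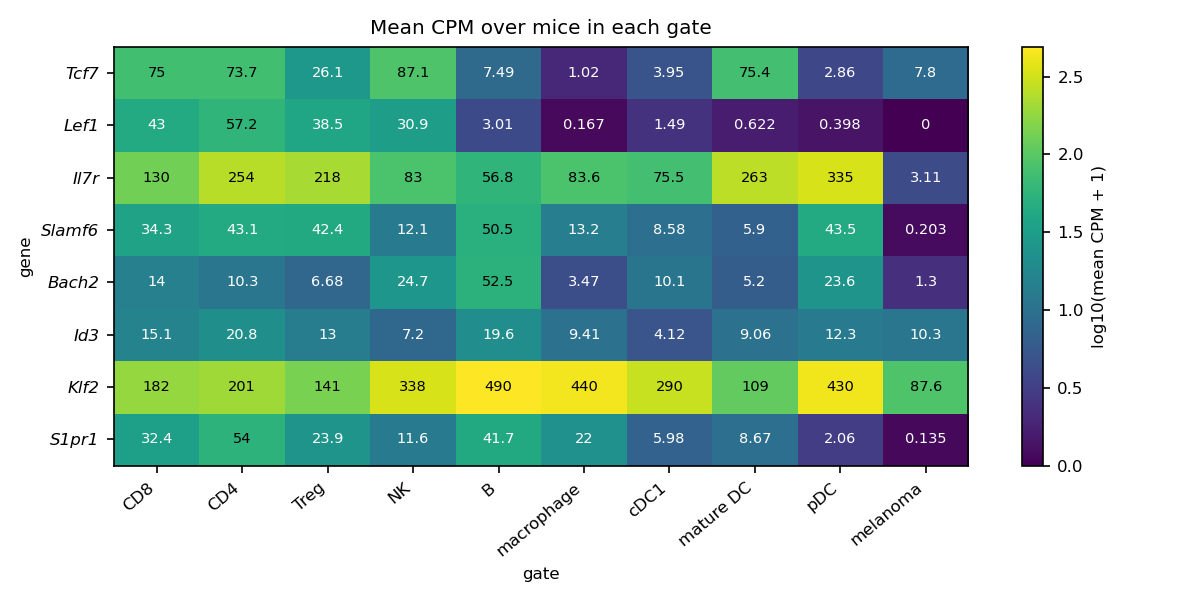
Mean level of each of the 8 genes (rows) in 10 cell gates (columns), in CPM over the mice with enough cells of that gate; colour is log10 of the mean CPM plus 1. Tcf7 and Lef1 are low in macrophages (1.02 and 0.167 CPM) and high in T and NK cells, whereas Klf2 is above 400 CPM in B cells, macrophages and plasmacytoid dendritic cells.

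In control tumours, anti-CD40 was compared with isotype in the CD8 gate, which asks whether these genes differ in tumour CD8 T cells after CD40 stimulation of antigen-presenting cells. S1pr1, Klf2, Slamf6, Tcf7 and Lef1 were higher under anti-CD40, by 2.33-fold to 6.05-fold. Il7r, Bach2 and Id3 did not pass the test. Of 11100 genes tested in this comparison, 21.8% passed at an adjusted p under 0.05 in either direction and 10.6% passed as higher and 11.1% as lower. The median log2 difference of the 8 genes was 1.39, beside -0.01 for all genes tested. p-values here and below measure the spread between mice as told apart by their hashtags.

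S1pr1 was at 16.5, 16.4, 18.3, 7.76 and 15.6 CPM in the 5 control isotype mice and at 77.7 and 97.3 CPM in the 2 control CD40 mice. Both anti-CD40 mice stood far above all isotype mice. The log2 difference was 2.60 (SE 0.35; adjusted p = 0.00016, edgeR quasi-likelihood test with Benjamini-Hochberg adjustment), a 6.05-fold higher level. Klf2, the regulator upstream of S1pr1, was at 71.1, 115, 111, 81.9 and 140 CPM against 297 and 356 CPM. These groups did not overlap either, with a log2 difference of 1.7 (SE 0.27; adjusted p = 0.000416), or 3.24-fold.

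Slamf6 was at 9.41, 21.1, 14.1, 10.7 and 18.7 CPM under isotype and at 41.8 and 49.8 CPM under anti-CD40. The lower anti-CD40 mouse was above the highest isotype mouse, and the log2 difference was 1.7 (SE 0.39; adjusted p = 0.00563). Tcf7 was at 37.2, 50.4, 39.4, 37.3 and 38.7 CPM against 118 and 115 CPM. It was 2.97-fold higher without overlap, a log2 difference of 1.57 (SE 0.43; adjusted p = 0.0144). Lef1 was at 19.8, 20.5, 25.3, 17.0 and 38.7 CPM against 45.9 and 62.5 CPM, with 1 isotype mouse close to the lower anti-CD40 mouse. Its log2 difference was 1.22 (SE 0.33; adjusted p = 0.0128).

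Il7r was at 54.1, 99.0, 104, 88.7 and 79.3 CPM under isotype and at 141 and 134 CPM under anti-CD40, a log2 difference of 0.73 (SE 0.42; adjusted p = 0.227). The mice did not overlap, but the difference did not pass. Of the 8 genes, 6 (Tcf7, Lef1, Il7r, Slamf6, Klf2 and S1pr1) were higher in both anti-CD40 mice than in every isotype mouse, a pattern that 22.8% of 8178 genes with a mean of at least 10 CPM also showed (28.1% were lower in both). Bach2 was at 8.47, 13.5, 10.3, 17.0 and 21.2 CPM against 18.9 and 26.5 CPM (log2 difference 0.75, SE 0.39; adjusted p = 0.179). Id3 ranged from 1.94 to 24.5 CPM under isotype and was at 9.93 and 29.2 CPM under anti-CD40 (0.36, SE 0.49; adjusted p = 0.645). For both, the isotype mice overlapped the anti-CD40 mice. The 2 technical lanes of the anti-CD40 pool gave like levels, such as 126 and 103 CPM for Tcf7, 350 and 336 for Klf2 and 99.7 and 83.8 for S1pr1.

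Depth and the share of cells with a UMI of Mki67 or Top2a moved with this comparison, and restricting the cells changed some calls. Detection of these genes rises with depth, so leaving out cells that have them may remove dividing cells unequally between the groups. In cells without a UMI of Mki67 or Top2a, S1pr1 (log2 difference 1.61, adjusted p = 0.0128) and Klf2 (1.10, adjusted p = 0.0227) still passed, while Slamf6 was at 1.07 (adjusted p = 0.0971), Tcf7 at 0.68 (adjusted p = 0.237) and Lef1 at 0.64 (adjusted p = 0.216). With every cell thinned to 1000 UMIs, S1pr1 was at 1.89, Slamf6 at 1.73 and Klf2 at 1.28, all past the threshold, while Tcf7 was at 0.91 (adjusted p = 0.0974) and Lef1 at 0.89 (adjusted p = 0.0691). Calls over all genes were also fewer than the 1181 higher and 1237 lower of 11100 in the main fit. Cells without Mki67 or Top2a gave 384 and 375 of 7582, and thinned cells 577 and 614 of 6560. Without hashtag 2 of the control CD40 pool, or without pool 1 of the control isotype group, S1pr1 (2.45 and 3.01) and Klf2 (1.59 and 1.63) passed, and Slamf6 (1.59 and 1.74), Tcf7 (1.62 and 1.7) and Lef1 (1.00 and 1.07) did not. Tcf7 was also not called without hashtag 1 of that pool (1.52, adjusted p = 0.0752) or without pool 2 of the isotype group (1.51, adjusted p = 0.0553). In cells with at most 0.2% macrophage transcripts, a limit chosen after seeing the data, the same 5 genes passed, with Tcf7 at 1.72 and S1pr1 at 2.5. Treating a lane as 1 sample summed the 2 control CD40 lanes and kept barcodes without an assigned hashtag. It set 1 control CD40 sample against 2 isotype lanes, with S1pr1 at 2.83. With no spread measured in the control CD40 group, the calls of that fit are not counted.

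**Figure D2:**
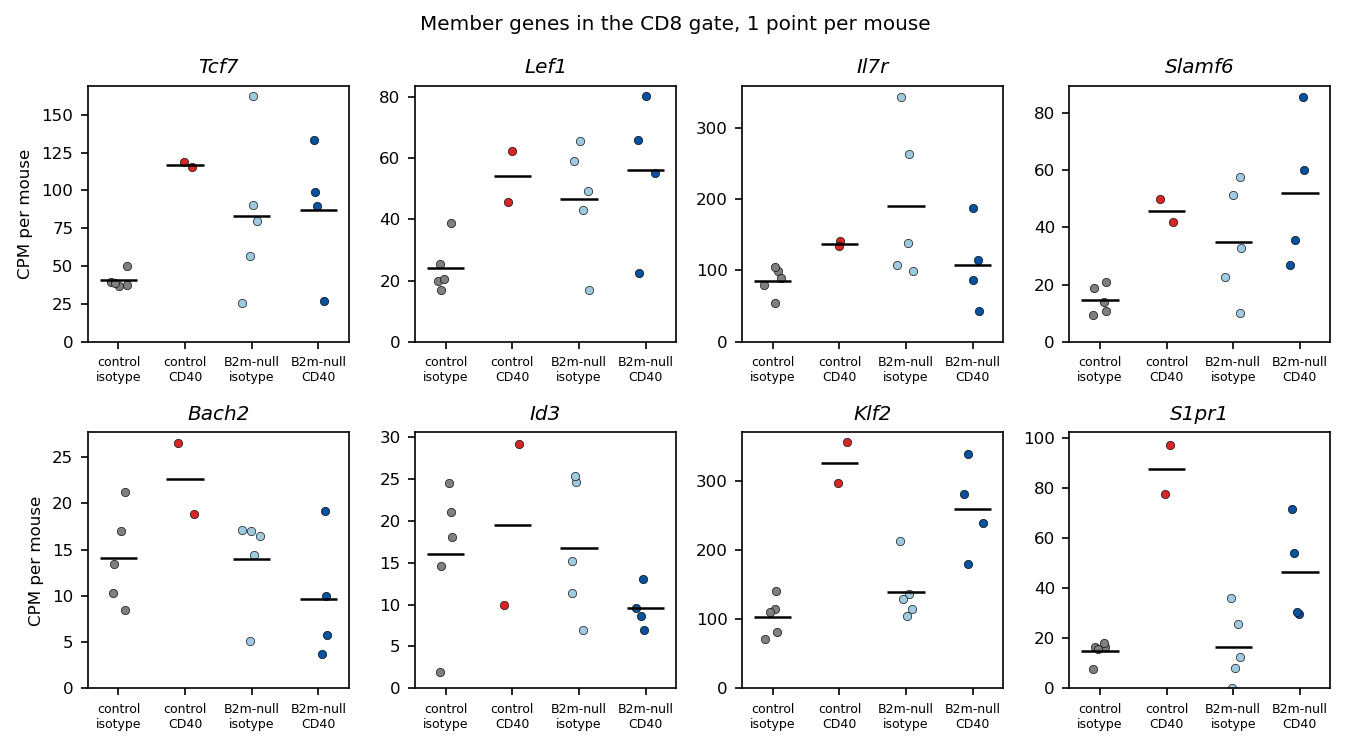
Levels in the CD8 gate: 1 panel per gene, 1 point per mouse, CPM on the vertical axis, the 4 groups on the horizontal axis and a bar at each group mean. Both control CD40 mice lie above all 5 control isotype mice for Tcf7, Lef1, Il7r, Slamf6, Klf2 and S1pr1, while the B2m-null groups overlap for every gene.

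In B2m-null tumours 2 members passed under the same treatment: Klf2 rose 2.08-fold and S1pr1 2.43-fold in the CD8 gate, and the other 6 genes did not pass. In this comparison 12% of 11100 genes passed in either direction, 6.86% as higher and 5.15% as lower, and the median log2 difference of the 8 genes was 0.26 beside 0.01 for all genes. Klf2 was at 136, 115, 129, 105 and 214 CPM in the 5 mice given isotype and at 239, 180, 339 and 281 CPM in the 4 given anti-CD40. One isotype mouse reached into the anti-CD40 range, and the log2 difference was 1.06 (SE 0.25; adjusted p = 0.0108, edgeR). S1pr1 was at 0, 8.22, 12.7, 25.6 and 36.2 CPM against 29.9, 30.4, 71.8 and 53.9 CPM. The mouse at 0 CPM had 0 UMIs of S1pr1 among 176596, and the mouse at 8.22 CPM had 1. The groups overlapped through the highest isotype mouse, with a log2 difference of 1.28 (SE 0.38; adjusted p = 0.0372). T cell transcripts moved with these changes: the 6 T cell markers (Cd3d, Cd3e, Cd3g, Trac, Trbc2 and Cd2, of which the Cd3 genes were used in the gate) summed to 1775 to 2563 CPM in the isotype and 2774 to 5676 CPM in the anti-CD40 mice, with medians of 1936 and 4367, and Cd8a and Cd8b1 to medians of 780 and 1363 CPM. In control tumours the medians were 3141 and 3506 CPM for the 6 markers and 921 and 1163 CPM for the Cd8 genes. Their part in the result was not tested.

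Slamf6 was at 22.7, 57.5, 10.1, 33.0 and 51.5 CPM against 35.5, 26.9, 85.7 and 59.95 CPM (log2 difference 0.86, SE 0.39; adjusted p = 0.163). Tcf7 was at 56.6, 90.4, 25.3, 80.0 and 162 CPM against 98.9, 27.1, 133 and 89.9 CPM (0.17, SE 0.41; adjusted p = 0.871). Lef1 was at 17.0, 49.3, 43.0, 65.6 and 59.1 CPM against 22.4, 55.3, 80.5 and 66.0 CPM (0.34, SE 0.31; adjusted p = 0.540). For these 3 genes both groups spanned a wide and shared range, and an interval of 2 SE around the Tcf7 difference ran from -0.65 to 1.00. Il7r was at 108, 263, 98.8, 138 and 343 CPM against 42.9, 86.7, 188 and 114 CPM (-0.55, SE 0.38; adjusted p = 0.380). Bach2 was at 14.0 ± 5.12 against 9.66 ± 6.88 CPM and Id3 at 16.7 ± 8.10 against 9.57 ± 2.57 CPM (SD, n = 5 and n = 4), neither passing. No member separated the groups, where 4.34% of 8178 genes were higher and 7.89% lower in every anti-CD40 mouse.

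The mice of the B2m-null CD40 group are given above with the 2 of pool 1 first and the 2 of pool 2 next, each pool being 1 lane. For Slamf6, Klf2, S1pr1, Lef1 and Il7r both pool 2 mice were above both pool 1 mice, whereas for Tcf7 the pools overlapped, with a pool 1 mouse at 98.9 CPM and a pool 2 mouse at 89.9. Id3 was lower in both pool 2 mice (8.66 and 6.96 against 13.1 and 9.59 CPM). Of 24 fits that each left out 1 mouse or lane, S1pr1 was not called in 9 and Klf2 in 3. Without pool 2 of the B2m-null CD40 group, Klf2 was at 0.64 (adjusted p = 0.24) and S1pr1 at 0.48 (adjusted p = 0.583). Without pool 1, Klf2 was at 1.40 (adjusted p = 0.00104), S1pr1 at 1.69 (adjusted p = 0.00155) and Slamf6 at 1.36 (adjusted p = 0.0052). Without pool 1 of the isotype group, Klf2 was at 0.90 (adjusted p = 0.16) and S1pr1 at 0.90 (adjusted p = 0.234). In cells without Mki67 or Top2a neither passed (Klf2 0.40, adjusted p = 0.377, and S1pr1 0.57, adjusted p = 0.405), and with mice of at least 50 cells neither did (Klf2 0.98, adjusted p = 0.0577, and S1pr1 1.08, adjusted p = 0.0963). After thinning, Klf2 was at 0.94 (adjusted p = 0.0482) and S1pr1 at 0.45 (adjusted p = 0.537). Of all genes, 427 were called higher and 378 lower of 7582 in cells without Mki67 or Top2a. With at least 50 cells it was 429 and 370 of 10751, and after thinning 235 and 142 of 6560.

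**Figure D3:**
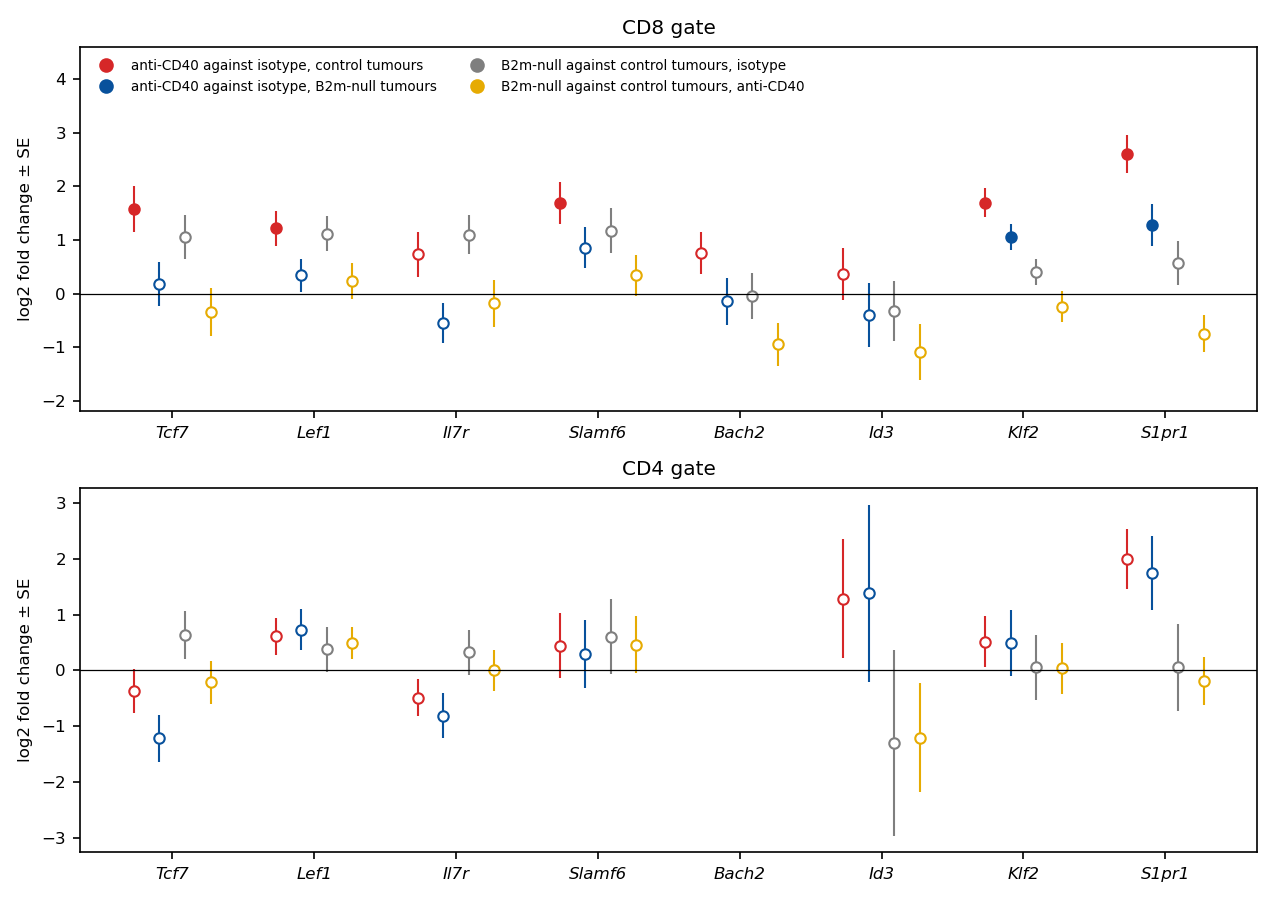
Log2 difference of each gene in the CD8 gate and the CD4 gate. Colours show anti-CD40 against isotype in control and in B2m-null tumours, and B2m-null against control tumours under isotype and under anti-CD40. Bars are 1 SE of the edgeR fit and filled points have an adjusted p under 0.05. Under anti-CD40, 5 genes passed in the CD8 gate in control tumours and 2 in B2m-null tumours. None passed between tumour genotypes or in the CD4 gate.

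The change under anti-CD40 itself was then compared between the tumour genotypes, where 5.89% of 11100 genes passed. None of the 8 genes passed, although all 8 differences had a negative sign, that is a smaller log2 difference in B2m-null tumours, with a median of -0.89 beside -0.02 for all genes. Tcf7 was at -1.40 (SE 0.60; unadjusted p = 0.0328, adjusted p = 0.181), S1pr1 at -1.32 (SE 0.54; adjusted p = 0.155) and Il7r at -1.29 (SE 0.57; adjusted p = 0.189) in the edgeR fit. Klf2 had the smallest difference, -0.64 (SE 0.37; adjusted p = 0.343). Without pool 2 of the B2m-null CD40 group, S1pr1 (-2.13, adjusted p = 0.011), Bach2 (-2.05, adjusted p = 0.0208), Slamf6 (-1.84, adjusted p = 0.0226), Il7r (-2.06, adjusted p = 0.0226) and Tcf7 (-2.32, adjusted p = 0.0233) passed. The comparisons share mice, so their values are not independent.

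Between tumour genotypes under isotype, Tcf7, Lef1, Il7r and Slamf6 had higher means in the CD8 gate of B2m-null tumours, but no member passed in a comparison where 0.243% of genes (27 of 11100) passed. Il7r was at 190 ± 108 against 85.0 ± 19.8 CPM (SD, n = 5 in each group), Tcf7 at 82.9 ± 50.9 against 40.6 ± 5.55, Lef1 at 46.8 ± 18.8 against 24.2 ± 8.62 and Slamf6 at 35.0 ± 19.7 against 14.8 ± 5.04. The B2m-null mice varied more than the control mice for each of these 4. They held 635 CD8 cells, 30 to 406 per mouse, against 1512 and 272 to 358 per mouse in the control group. The part of low counts in the wider spread was not tested. Log2 differences were 1.10 (SE 0.36; adjusted p = 0.177) for Il7r, 1.05 (SE 0.41; adjusted p = 0.245) for Tcf7, 1.12 (SE 0.32; adjusted p = 0.123) for Lef1 and 1.18 (SE 0.42; adjusted p = 0.206) for Slamf6. These 4 had an unadjusted p under 0.05 in edgeR, as had 1607 of the genes tested, and DESeq2 passed 1 of them, Il7r at 1.15 (SE 0.38; adjusted p = 0.0472). DESeq2 passed more genes here than edgeR, 99 as higher and 123 as lower of the 4185 to which it gave an adjusted p. Klf2 (0.40), S1pr1 (0.57), Bach2 (-0.05) and Id3 (-0.33) had smaller differences.

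Under anti-CD40, the means of Tcf7 (117 in control and 87.3 CPM in B2m-null tumours) and Lef1 (54.2 and 56.0) lay within the spread of the B2m-null mice, and no member passed where 2.38% of genes passed. S1pr1 was lower in all 4 B2m-null CD40 mice than in both control CD40 mice (46.5 ± 20.3 against 87.5 ± 13.9 CPM; log2 difference -0.75, SE 0.35, adjusted p = 0.289), a separation that 20.4% of 8178 genes showed in that direction and 12.2% in the other. Bach2 had a log2 difference of -0.95 (adjusted p = 0.239) and Id3 of -1.09 (adjusted p = 0.298).

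Other genes of the programme were read from 5 lists. In control tumours, of 15 naive and quiescence genes, 6 rose in the CD8 gate under anti-CD40 (Foxo1, Klf3, Foxp1, Satb1, Ltb and Als2cl) and 1 fell (Ccr7), with a median log2 difference of 0.69. Of all 11100 genes tested, 10.6% passed as higher and 11.1% as lower. The lists were chosen with earlier results of these data known, so the count is given as a description. Foxo1, a transcription factor that acts upstream of Klf2 and Il7r, was at 27.0 ± 4.01 CPM under isotype and 66.1 ± 2.31 under anti-CD40 (log2 difference 1.34, SE 0.18; adjusted p = 0.00016, edgeR). Klf3, a relative of Klf2, had means of 27.2 and 99.2 CPM (1.93, SE 0.37; adjusted p = 0.00178; without hashtag 2 of the control CD40 pool 1.68, adjusted p = 0.0521). Ccr7, the lymph node homing receptor, went the other way, from 98.5 to 16.7 CPM (-2.54, SE 0.32; adjusted p = 0.000102). Ccr7 is also one of the mature dendritic cell markers whose summed level in the CD8 gate fell with it, and the part of such transcripts in the change of Ccr7 was not tested.

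Of 10 stem-like and precursor exhausted genes, 2 rose and 1 fell in control tumours (median 0.16). These and the counts of the next lists stand beside the 21.8% of all genes tested that passed in this comparison, and nothing particular to a list is read from them. The costimulatory receptor Cd28 rose from 257 to 545 CPM (1.13, SE 0.23), the granzyme Gzmk from 50.03 to 141 CPM (1.54, SE 0.46), and the inhibitory receptor Pdcd1 fell from 194 to 102 CPM (-0.90, SE 0.23). Of 14 effector and terminal genes, 2 rose (Cd38 1.23 and Klrg1 1.73) and 2 fell, the inhibitory receptor Havcr2 (-1.43; 165 to 60.2 CPM) and the pore-forming Prf1 (-1.21; 470.4 to 198 CPM), with a median of -0.06. Among 7 residency genes tested, Cd69, whose product opposes S1PR1 at the cell surface, rose (1.00; 107 to 207 CPM), and the integrin Itgae fell (-1.94; 14.6 to 3.79 CPM). Of 10 genes of IL-7 receptor signalling, the kinase Jak3 rose (0.85; 29.98 to 52.6 CPM) and the others did not pass. Several of these calls rest on 1 mouse or pool: without hashtag 2 of the control CD40 pool, Pdcd1 (-0.62, adjusted p = 0.249), Prf1 (-0.90, adjusted p = 0.188), Havcr2 (-1.08, adjusted p = 0.135) Itgae (-1.48, adjusted p = 0.297) and Gzmk (1.30, adjusted p = 0.228) did not pass. Without pool 1 of the control isotype group, Cd28 (0.93, adjusted p = 0.0814), Cd38 (0.95, adjusted p = 0.0564), Pdcd1 (-0.95, adjusted p = 0.0703), Cd69 (1.01, adjusted p = 0.0709), Jak3 (0.72, adjusted p = 0.0716), Gzmk (1.13, adjusted p = 0.307) and Itgae (-2.06, adjusted p = 0.0885) did not. In cells without Mki67 or Top2a, Cd69 (0.41, adjusted p = 0.375), Cd28 (0.84, adjusted p = 0.0525), Pdcd1 (-0.94, adjusted p = 0.0687), Gzmk (1.44, adjusted p = 0.0576) and Itgae (-1.97, adjusted p = 0.143) did not pass. Gzmk also missed under DESeq2 (1.54, adjusted p = 0.0821) and Cd69 after thinning (0.70, adjusted p = 0.0559).

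In B2m-null tumours, 3 naive and quiescence genes rose under anti-CD40 (Ltb 1.16, Foxo1 0.96 and Txk 0.92) and 2 fell (Ccr7 -3.14 and Igfbp4 -1.53), with a median of -0.18, in a comparison where 12% of all genes passed, 6.86% as higher and 5.15% as lower. Of the stem-like list, Cd28 (0.81) and Gzmk (1.53) rose, and Myb (-0.86), a factor needed by stem-like CD8 cells, and Cd200 (-1.55) fell. Havcr2 (-1.33) and Itgae (-2.25) fell here too, Cd38 (0.73) rose, and of the IL-7 list the common gamma chain Il2rg rose (0.74; 92.2 to 143 CPM). Between genotypes in the CD8 gate, Prf1 was the only list gene to pass under isotype. It was lower in B2m-null tumours (114 against 470.4 CPM, log2 difference -2.07, SE 0.25). Under anti-CD40 the only list gene to pass in that gate was the inhibitory receptor Lag3 (-1.09, SE 0.27). Lag3 did not pass without either mouse of the control CD40 pool (-0.86, adjusted p = 0.335, and -1.30, adjusted p = 0.233). Without pool 2 of the B2m-null CD40 group, Foxo1 (0.79, adjusted p = 0.0612), Cd28 (0.39, adjusted p = 0.386), Myb (-1.03, adjusted p = 0.0548), Cd200 (-1.12, adjusted p = 0.215), Havcr2 (-1.29, adjusted p = 0.069), Itgae (-3.23, adjusted p = 0.0561) and Il2rg (0.55, adjusted p = 0.095) did not pass, while Ltb and Ccr7 did. In cells without Mki67 or Top2a, Cd200 (-1.88, adjusted p = 0.0666), Cd38 (0.90, adjusted p = 0.1), Itgae (-2.37, adjusted p = 0.0857) and Il2rg (0.55, adjusted p = 0.0719) did not pass. Cd38 passed in 14 alternative fits and missed in 23, among them RLE size factors (0.71, adjusted p = 0.059), DESeq2 (0.71, adjusted p = 0.0605), thinning (0.59, adjusted p = 0.268) and leaving out pool 2 of the isotype group (0.43, adjusted p = 0.433).

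In the CD4 gate 7 members could be tested (Bach2 had too few counts) and none passed in edgeR, in comparisons where 3.58% (anti-CD40, control tumours), 1.02% (anti-CD40, B2m-null tumours), 0.0156% and 0.282% (genotypes under isotype and under anti-CD40) and 0.0156% (difference of the anti-CD40 changes) of 6390 genes passed. S1pr1 came closest. It was at 11.8, 10.5, 26.6 and 50.5 CPM in 4 control isotype mice, at 118 and 76.1 CPM in 2 control CD40 mice, at 25.1 CPM in the single mouse under isotype with a B2m-null tumour and at 31.0, 108 and 82.3 CPM in 3 B2m-null CD40 mice. All 5 anti-CD40 values were above those of the isotype mice except for 1 B2m-null CD40 mouse, which lay below the highest control isotype mouse. The log2 difference was 2.00 (SE 0.54; unadjusted p = 0.00224, adjusted p = 0.0548) in control tumours and 1.76 (SE 0.66; adjusted p = 0.303) in B2m-null tumours. S1pr1 passed in control tumours with a minimum of 10 cells per mouse (2.00, adjusted p = 0.022) and with a stricter T cell gate (3.32, adjusted p = 0.0148), and over all alternative fits it passed in 10 and missed in 16. In B2m-null tumours it passed in 5 and missed in 22, passing with no filter on low counts (1.77, adjusted p = 0.0342), with at least 10 cells per mouse (1.7, adjusted p = 0.0479), with the replicate block (2.04, adjusted p = 0.0239) and without pool 1 of the B2m-null CD40 group (2.02, adjusted p = 0.0278). Both tallies count that last fit again as leaving out a mouse, since pool 1 has a single mouse in this gate.

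Tcf7 did not follow S1pr1 in CD4 cells. It was at 29.4, 110.1, 93.3 and 101 CPM in control isotype mice, at 65.2 and 60.9 CPM in control CD40 mice, at 130.2 CPM in that B2m-null isotype mouse and at 34.5, 63.5 and 49.0 CPM in B2m-null CD40 mice. Its log2 difference was -0.37 (SE 0.39; adjusted p = 0.668) in control and -1.21 (SE 0.42; adjusted p = 0.251) in B2m-null tumours, where the single isotype mouse is taken to vary like the mice of the other groups. Tcf7 in B2m-null tumours passed with a minimum of 10 cells (-1.37, adjusted p = 0.0232). Il7r was at 229, 304, 333 and 322 CPM in control isotype and at 191.5 and 217 CPM in control CD40 mice, with no overlap (log2 difference -0.49, SE 0.34; adjusted p = 0.4663), a lower separation that 13.3% of 8219 genes showed. Lef1, at 35.3, 47.2, 39.97 and 37.9 against 61.1 and 58.7 CPM, separated upwards (0.61, SE 0.33; adjusted p = 0.335), as did 12.6% of genes. The other members, Klf2 (0.51 in control tumours), Slamf6 (0.45) and Id3 (1.29, SE 1.06), did not pass and overlapped. Counts were simulated for these mice and UMI totals, with 1 spread for all genes and no differences between pools. There the fit found 23.1% of 2-fold and 78.1% of 4-fold changes in the CD4 gate, so that smaller differences would often be missed. What differences between pools do to these rates was not tested.

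Among the list genes of the CD4 gate, Ccr7 (-2.85) fell in control tumours under anti-CD40, the cytokine gene Ifng (4.34), Lag3 (2.23) and Id2 (0.80) rose, and of the residency list Cxcr6 rose (2.8) and Itgae fell (-3.46). In B2m-null tumours Ifng was at 299 to 470.04 CPM in 3 anti-CD40 mice and 32.0 CPM in the 1 isotype mouse (3.76), and Cxcr6 at 376 to 1009 CPM and 160 CPM (2.44). The edgeR fit put both under the threshold only by taking that lone mouse to vary like the mice of the other groups, and the spread of its own group is not measured. Cxcr6 missed in 9 alternative fits and passed in 19, with a value of 1.32 (adjusted p = 0.136) without pool 2 of the B2m-null CD40 group. Ifng there missed in 1, in CD4 cells without Il2ra or Ikzf2 (2.53, adjusted p = 0.274). Ifng in control tumours passed in all 27 alternative fits. Cxcr6 there missed in 1, the fit with a lane as the unit, where control CD40 was 1 summed sample. Ccr7 missed the threshold in 9, Lag3 and Id2 each in 10 and Itgae in 14. The tallies in control tumours count that lane fit. The summed mature dendritic cell markers in the CD4 gate had medians of 429 CPM in control isotype and 57.3 in control CD40 mice, and the part of these transcripts in the values was not tested. The median UMIs per cell were 2950 and 1752. After thinning to 1000 UMIs, Ifng, Cxcr6 and Id2 passed in control tumours, while Ccr7 (-3.18, adjusted p = 0.0649) and Lag3 (2.01, adjusted p = 0.0904) did not. Between genotypes under anti-CD40, Havcr2 was lower in CD4 cells of B2m-null tumours (-1.76, SE 0.31, adjusted p = 0.0377 in edgeR), where 0.282% of 6390 genes passed. It missed in 15 alternative fits, among them the one with a lane as the unit, and passed in 13.

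Foxp3-positive cells were few: 229 in control isotype, 21 in control CD40, 163 in B2m-null isotype and 59 in B2m-null CD40 mice. Mice with at least 20 of them held 229 cells in control isotype, 123 in B2m-null isotype and 31 in B2m-null CD40, and no control CD40 mouse reached that number. Of the 7 members that could be tested none passed in edgeR, where 0.58% (anti-CD40 in B2m-null tumours) and 0.125% (genotypes under isotype) of 6383 genes passed. Klf2 was at 83.7, 100.1, 85.6, 112 and 181 CPM in control isotype mice, at 129 and 128 CPM in the pair of B2m-null isotype mice and at 305 CPM in the single B2m-null CD40 mouse. That mouse was the highest of the 8 (log2 difference from B2m-null isotype 1.30, SE 0.41; adjusted p = 0.166, with the lone mouse taken to vary like the others). With a minimum of 10 cells per mouse Klf2 passed at 1.44 (adjusted p = 0.013), while it missed in 20 alternatives. A fit of only the groups compared put it at 1.27 (adjusted p = 0.0065), but that fit sets 1 mouse against 2 and takes its spread from those 2 alone. Tcf7 was at 57.9, 17.3, 15.9, 10.9 and 19.2 CPM in control isotype mice, 22.3 and 34.6 in B2m-null isotype mice and 30.5 in the B2m-null CD40 mouse (3 UMIs), with no separation of groups. Il7r was between 142 and 326 CPM in all 8 mice.

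The 3 gates were also compared within mice, with each mouse as a block (12 mice with a CD8, 10 with a CD4 and 8 with a regulatory gate). Of the members 6 could be tested, and Bach2 and Id3 had too few counts. Il7r was 2.03-fold higher in the CD4 than in the CD8 gate (log2 difference 1.02, SE 0.18; adjusted p = 0.000236, edgeR), the only member to pass where 17.5% of 6849 genes did. Without CD4 cells that had a UMI of Il2ra or Ikzf2, genes shared with regulatory T cells, the Il7r difference was 0.69 (adjusted p = 0.098). Tcf7 (-0.13, with 2 SE from -0.60 to 0.34), Lef1 (0.21, -0.09 to 0.50), Slamf6 (0.13, -0.30 to 0.56), Klf2 (0.01, -0.31 to 0.33) and S1pr1 (0.34, -0.03 to 0.71) did not pass. In cells without Mki67 or Top2a, Tcf7 (-0.68, adjusted p = 0.0223) and Bach2 (-1.39, adjusted p = 0.00509), which could be tested there, were lower in CD4 cells, and Il7r was at 0.75 (adjusted p = 0.000651). Tcf7 was lower in the regulatory than in the CD4 gate, at 0.328 of the level (log2 difference -1.61, SE 0.39; adjusted p = 0.0238), where 2.35% of genes passed. Lef1 (-0.43), S1pr1 (-0.59), Il7r (-0.37), Klf2 (-0.22) and Slamf6 (0.24) did not pass.

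The Tcf7 difference between regulatory and CD4 cells depended on single mice and on the gate. It did not pass with mice of at least 50 cells (-1.41, adjusted p = 0.159), with a stricter T cell gate (-1.17, adjusted p = 0.178) or against CD4 cells without Il2ra or Ikzf2 (-1.18, adjusted p = 0.143). Leaving out the mouse with hashtag 1 of B2m-null isotype pool 2 gave Tcf7 at -1.29 (adjusted p = 0.22). The CD4 gate held regulatory T cell markers other than Foxp3 at summed medians of 1643 CPM in control isotype and 1035 in control CD40 mice.

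The lists were read in the same within-mouse fits, where 17.5% of all genes passed between CD4 and CD8 cells and 2.35% between regulatory and CD4 cells. Between CD4 and CD8 cells, 2 of 10 naive and quiescence genes tested were higher in CD4 cells (Ltb 0.33 and Satb1 0.39) and 1 lower (Bcl2 -0.46). Of 9 stem-like genes 3 were higher (the costimulator Icos 1.57, Cd200 1.24 and Cd28 0.34) and 4 lower (Eomes -3.17, Gzmk -3.15, Tox -1.17 and Xcl1 -2.09). Of 13 effector genes 0 were higher and 5 lower (Gzmb -2.13, Prf1 -2.15, Cd38 -0.81, Cx3cr1 -1.25 and Havcr2 -0.71). Of 7 residency genes 3 were higher (Rgs1 0.46, Cd44 0.50 and Cd69 0.48) and 0 lower. Of 10 genes of IL-7 receptor signalling 4 were higher (Cish 0.86, Stat5a 0.59, Socs3 0.64 and Stat5b 0.35) and 2 lower (Jak1 -0.29 and Bcl2, which is on both lists). Between regulatory and CD4 cells, Ltb (0.39), Myb (1.26), Icos (0.53), Klrg1 (1.91) and Prdm1 (0.70) were higher in regulatory cells, and Bcl2 (-1.22), Ifng (-3.98), Id2 (-0.50) and Cxcr6 (-2.34) were lower. Over up to 20 alternative fits between CD4 and CD8 cells, Cd69 was not called in 9, Satb1 in 8 (and reversed in 1 more), Bcl2 in 5, Ltb in 4 and Cish, Cd38 and Stat5a each in 1. Between regulatory and CD4 cells Ltb and Icos were each not called in 4, Prdm1 in 3 and Bcl2, Klrg1 and Myb each in 1.

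Shares of cells with at least 1 UMI were compared after every cell was thinned to 1000 UMIs, since detection rises with depth. Cells under 1000 UMIs were left out, 2.25% of the CD8 gate in control isotype, 16.4% in control CD40, 1.73% in B2m-null isotype and 4.01% in B2m-null CD40 mice. In control tumours, Tcf7 was found in 12.5% ± 0.508 of CD8 cells under anti-CD40 (SD, n = 2) and in 6.29% ± 0.735 under isotype (n = 5), S1pr1 in 9.79% ± 1.73 against 2.8% ± 0.891, Klf2 in 25.5% ± 4.66 against 11% ± 3.07 and Slamf6 in 5.74% ± 0.130 against 1.94% ± 1.11. For these 4 genes and for Il7r (11.1% against 8.13%) no isotype mouse reached the anti-CD40 mice, a separation that 14.7% of 8010 genes found in at least 1% of cells on average also showed (15.8% were lower). With 2 against 5 mice the smallest two-sided exact permutation p is 0.0952, which all 5 had, so the design could not pass 0.05. Without thinning, Tcf7 was in 24.7% against 16.0%, S1pr1 in 20.5% against 6.43% and Klf2 in 46.0% against 29.7% of cells, whereas Il7r was in 21.1% under anti-CD40 against 25.8% under isotype, the opposite order. Slamf6 was then in 12.0% against 8.38% with overlapping groups (exact permutation p = 0.19).

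In B2m-null tumours Klf2 was found in 22.2% ± 4.97 of thinned CD8 cells under anti-CD40 (n = 4) and in 11.5% ± 3.90 under isotype (n = 5), without overlap, as were 2.53% of the 8010 genes upwards and 3.27% downwards (exact permutation p = 0.0159, the smallest possible, and 0.593 after Benjamini-Hochberg adjustment over the 56 share tests). Without thinning, Klf2 was in 42.5% against 33.8% of cells and the groups overlapped (exact permutation p = 0.143). Tcf7 shares were alike in mean, 9.73% ± 4.26 against 10.0% ± 7.26 (exact permutation p = 0.952). Il7r was found in 15.9% ± 6.55 of cells in B2m-null isotype and 8.13% ± 2.37 in control isotype mice (exact permutation p = 0.0317, overlapping). None of the 56 share tests passed after adjustment, the lowest adjusted p by the exact permutation test being 0.593. With these numbers of mice no values could have passed after adjustment over 56 tests, so nothing is concluded from that. For comparison, thinned macrophages (8209 cells, median 4605 UMIs before thinning) had Tcf7 in 0.0487%, Lef1 in 0.0244%, Slamf6 in 1.33%, S1pr1 in 2.06% and Il7r in 5.36% of cells. Within control isotype mice S1pr1 was in 1.47% of macrophages and 2.8% of CD8 cells, and within B2m-null isotype mice in 4.03% and 3.96%. The latter CD8 share is thus not above that of macrophages. S1pr1 is also used outside T cells, so the macrophage share is not a blank for it. Klf2, at 31.1% in macrophages, has no gate here that lacks it. Its macrophage share was also larger under anti-CD40, 42.1% against 24.6% in control and 35.4% against 24.3% in B2m-null tumours, which moves with the CD8 shares, and the part of macrophage transcripts in these shares was not tested. In melanoma cells (796 cells) Lef1, Slamf6, Bach2 and S1pr1 were in 0 cells and Tcf7 in 1.13%.

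**Figure D4:**
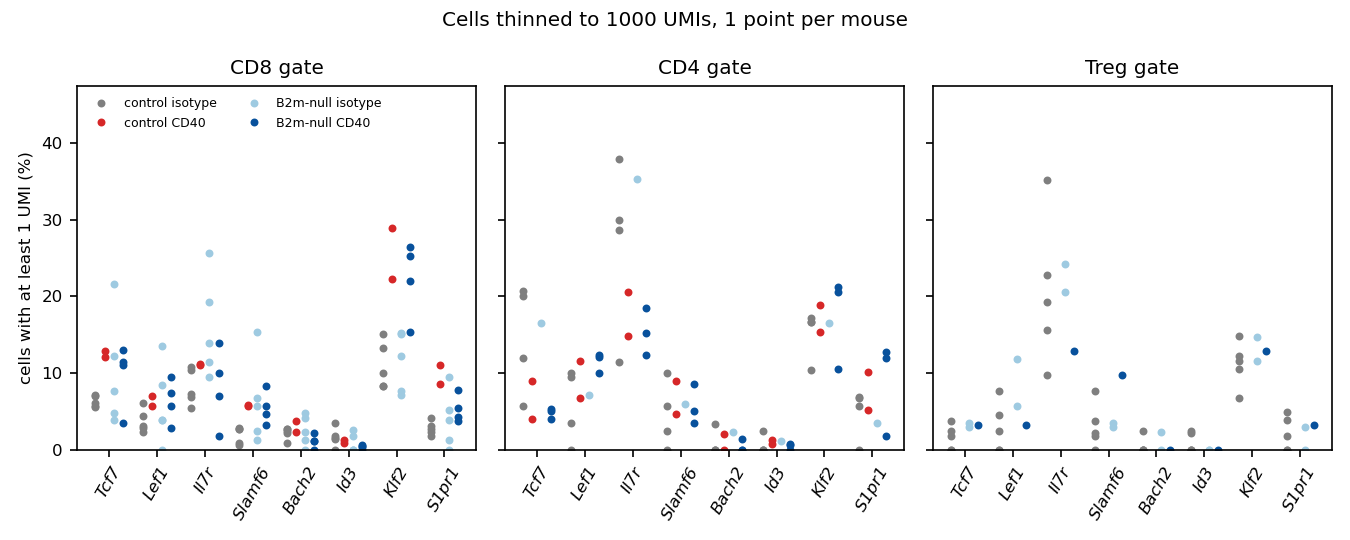
Percent of cells with at least 1 UMI of each gene after thinning to 1000 UMIs, 1 point per mouse, by group, in the CD8, CD4 and regulatory T cell gates. In the CD8 gate of control tumours the anti-CD40 mice lie above the isotype mice for Tcf7, Il7r, Slamf6, Klf2 and S1pr1, and in B2m-null tumours for Klf2.

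Within mice, CD8 cells with a UMI of Tcf7 were then set against CD8 cells without one, over 13 mice with at least 10 cells of each kind after thinning. All other members were found in a larger share of Tcf7-positive cells: Klf2 in 34.3% against 15.4%, Il7r in 26.7% against 8.40%, S1pr1 in 12.9% against 4.61%, Lef1 in 12.3% against 5.18%, Slamf6 in 9.84% against 3.72%, Bach2 in 5.08% against 1.85% and Id3 in 3.22% against 0.791%. Klf2 and S1pr1 were higher in 13 of 13 mice, Il7r and Lef1 in 12 and Slamf6 in 11. Each difference was tested by an exact two-sided sign-flip permutation test over mice. After Benjamini-Hochberg adjustment over the 7857 genes found in at least 1% of cells, a step added after seeing the data, 4 of these 7 members passed: Klf2 and S1pr1 (adjusted p = 0.0252 by the exact test), Il7r (0.0278) and Slamf6 (0.0372). Lef1 (0.0557), Bach2 (0.188) and Id3 (0.204) did not. Of all 7857 genes 3.5% passed, 0.904% as higher and 2.6% as lower in Tcf7-positive cells. The smallest unadjusted p that 13 mice allow is 0.000244.

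Of the naive and quiescence list, the chromatin organiser Satb1 was in 28.4% of Tcf7-positive and 10.6% of Tcf7-negative cells (higher in 11 of 13 mice), and Ccr7 in 8.98% and 3.91% (10 of 13). The 4 genes of the effector list examined were less often found in Tcf7-positive cells: Gzmb, the cytotoxic granzyme, in 14.6% against 41.0%, Prf1 in 7.63% against 18.8%, Lag3 in 3.67% against 8.58% and Havcr2 in 1.99% against 9.53%. So were 3 genes of the stem-like list itself, Tox in 10.4% against 18.2%, Pdcd1 in 6.69% against 13.6% and Gzmk in 9.58% against 12.8%. Xcl1, also on that list, went the other way, by 3.47 percentage points. The residency genes went both ways, Cxcr6 in 14.9% against 33.7% and Cd69 in 26.6% against 18.3%, and the chemokine receptor Cxcr3, which is on no list, was in 11.5% against 7.18%. Tcf7-positive cells also less often had a UMI of Top2a (11.3% against 21.0%) or Mki67 (7.20% against 13.9%). Of 23 genes set against Tcf7, 11 passed over all genes, among them Gzmb, Havcr2, Cxcr6, Top2a, Pdcd1 and Prf1 as lower. Satb1 (adjusted p = 0.0557 by the exact test), Cxcr3 (0.0638), Tox (0.074), Lag3 (0.0788), Mki67 (0.083), Cd69 (0.116), Ccr7 (0.19), Gzmk (0.223) and Xcl1 (0.311) did not. Adjusted over the 23 alone 22 passed, all but Xcl1, but those genes were chosen with earlier results known and that count supports nothing by itself.

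With the adjustment over the 23 genes, these within-mouse differences were partly lost with fewer cells or UMIs. With cells thinned to 500 UMIs, 9 of 23 genes passed over 11 mice. Of the members these were Klf2 and Il7r, each higher in 11 of 11 mice, while Lef1 (adjusted p = 0.0854 by the exact test), Slamf6 (0.17), S1pr1 (0.192), Id3 (0.215) and Bach2 (0.22) did not pass. S1pr1 was then higher in 5 mice and lower in 6, and Id3 higher in 4 and lower in 7. In cells without Mki67 or Top2a 14 passed over 11 mice, where those 2 genes are at 0 by construction and could not pass. Slamf6 (adjusted p = 0.0749 by the exact test), Bach2 (0.111) and Id3 (0.128) did not pass there, and Ccr7 (0.0964), Cxcr3 (0.0964) and Cd69 (0.24) did not either. Ccr7 did not pass in cells with at most 0.2% macrophage transcripts (adjusted p = 0.135 by the exact test). A cell counted as negative may carry Tcf7 transcripts that were not captured.

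**Figure D5:**
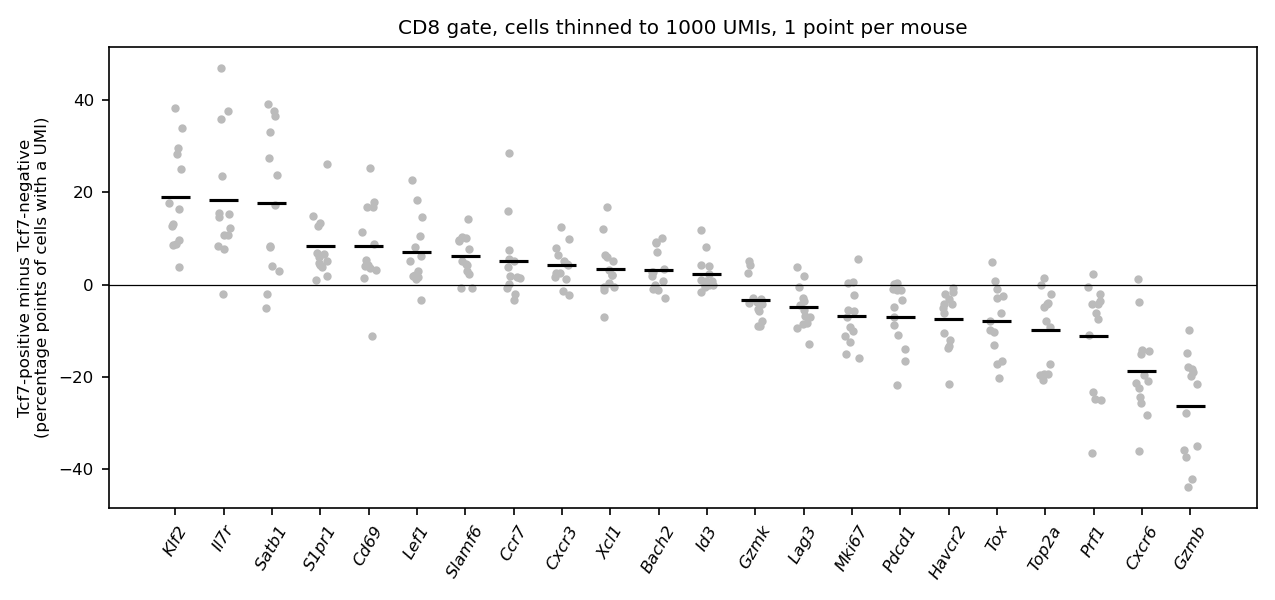
Difference in the percent of CD8 cells with a UMI of each gene between Tcf7-positive and Tcf7-negative cells, in percentage points, 1 point per mouse (13 mice) and a bar at the mean. The other 7 members have positive means, from 2.42 points for Id3 to 18.9 points for Klf2, and Gzmb has a mean of -26.4 points.

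Across mice, the members also varied within groups. After each group's mean was subtracted, log2(CPM + 10) in the CD8 gate over 16 mice correlated for Tcf7 and Slamf6 at Pearson r = 0.845, for Il7r and Slamf6 at 0.815, for Lef1 and S1pr1 at 0.784 and for Slamf6 and Bach2 at 0.770. Id3 stood apart, with r from -0.315 to 0.141 with the other members. Among 3299 genes with a mean of at least 50 CPM, those most like Tcf7 were Trim12a (0.907), Cyth4 (0.858), Sesn3 (0.843), Peak1 (0.842) and Sptan1 (0.811), and those most like Klf2 included Vsir (0.797), Osbpl9 (0.766), Malat1 (0.753) and Myo1f (0.748). The points share lanes, depth and share of cycling cells within a pool, and these correlations are given as a description with no test.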

How the data were processed

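The deposited matrices hold UMI counts per gene and cell barcode, with hashtag counts in further lines, as deposited and per the file headers. Per the submitters' processing notes they come from Cell Ranger 3.0.0 and bcl2fastq 2.20.0.422 with build mm10, and the role of each is not given there. Gene identifiers matched GENCODE vM21 (GRCm38) for coordinates, and promoter windows are RefSeq's (GRCm38.p6).

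Barcodes were assigned to mice by a mixture of normals on the log hashtag counts (at least 20 counts and a posterior of at least 0.9). Barcodes more than 2.5 SD over background for more than 1 hashtag were doublets, and no doublet caller on transcripts was run. On simulated hashtags 7.9% to 92% of doublets were marked, least in the control CD40 lanes, so doublets within a mouse or between mice remain. Cells needed 200 genes and at most 10% mitochondrial counts. T cell gates allowed at most 1% macrophage, 0.5% melanoma and 1% neutrophil transcripts and under 2 B cell UMIs. Counts were summed per mouse and gate (20 cells or more) and fitted with edgeR 4.0.16 in R 4.3.3 (quasi-likelihood test, TMM, filterByExpr, Benjamini-Hochberg adjustment over all genes of a gate, threshold 0.05). All groups of a gate share 1 fit, and the comparisons share mice. DESeq2 1.42.0 was an alternative. On simulated counts of the CD8 gate, edgeR recovered 63% of 2-fold and 99% of 4-fold changes in control tumours and 54.2% and 90.7% in B2m-null tumours. The simulated mice were independent, with 1 spread for all genes and no differences between pools.

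Shares of cells with a UMI were computed after thinning each cell to 1000 UMIs, with exact two-sided permutation tests over mice. These tests were coded directly and checked against scipy 1.17.1 on random numbers. Tcf7-positive and Tcf7-negative cells were compared over all genes with a mean share of at least 1%. Intervals of 2 SE come from the edgeR fit and cover the spread between mice. The labels give mice as separate animals through hashtags, and p-values measure the spread between them. Alternatives were the scaling, the count filter, the cells per mouse, the gate, cycling cells, thinning, the lane as unit (the 2 control CD40 lanes summed), the replicate block and leaving out each mouse or lane. The 8 genes, the lists and the tests were chosen with earlier results of these data known. All 8 are named; of each list, at most 3 genes per gate and comparison with the lowest adjusted p among those that passed are given with levels, and others that passed are named or counted. Likeness used the 5 highest Pearson r among genes of at least 50 CPM. Some genes of the lists and of the likeness ranking are counted but not reported here by name. No genome or protein sequence was used here.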

Additional observations from a re-analysis of the deposited data

Results flagged for a closer look

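In groups of 4 or 5 mice, a mouse was singled out where its gap to the next mouse, divided by the group's range, was above Dixon's critical value. Among 40 groups of a member in a T cell gate 6 had such a mouse, and for normally distributed values this critical value is set so that chance gives about 1 in 20. In the CD8 gate these were the lowest B2m-null isotype mouse for Bach2 (5.06 CPM, next 14.4, from 2 UMIs in 80 cells), the highest B2m-null isotype mouse for Klf2 (214 CPM, next 136), the highest control isotype mouse for Tcf7 (50.4 CPM, next 39.4) and the lowest control isotype mouse for S1pr1 (7.76 CPM, next 15.6). In the CD4 gate it was the highest control isotype mouse for Id3 (57.7 CPM, next 5.88, from 11 UMIs in 44 cells). In the regulatory gate it was the highest control isotype mouse for Tcf7 (57.9 CPM, next 19.2, from 9 UMIs in 26 cells).

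Among the list genes in the CD8 gate, 2 had an anti-CD40 change that differed between tumour genotypes by the test of that difference in edgeR, where 5.89% of all 11100 genes tested passed. Foxp1, a factor of quiescent T cells, had a difference of -1.05 (SE 0.28; adjusted p = 0.0338), from means of 89.7 and 158 CPM under isotype and anti-CD40 in control tumours and 162 and 125 CPM in B2m-null tumours. Without hashtag 2 of the control CD40 pool Foxp1 was at -0.93 (adjusted p = 0.218). Prf1 had a difference of 1.51 (SE 0.39; adjusted p = 0.0293), from 470.4 and 198 CPM in control and 114 and 129.6 CPM in B2m-null tumours, and without that mouse it was at 1.23 (adjusted p = 0.234).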

How the results depend on the processing

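Counts of calls are of member and gate pairs over the 3 T cell gates, not of genes. Under anti-CD40 in control tumours 5 were called, all in the CD8 gate: 8 with no filter on low counts (all CD8 members but Id3, and S1pr1 in the CD4 gate), 2 in cells without Mki67 or Top2a (7582 genes tested), 3 after thinning (6560 genes), and 2 to 6 when 1 mouse or lane was left out. Over all genes of the CD8 gate, the main fit called 1181 higher and 1237 lower of 11100. It was 1427 and 1215 of 19610 with no filter. Without Mki67 or Top2a it was 384 and 375 of 7582, and after thinning 577 and 614 of 6560. With a lane as the unit, control CD40 was 1 summed sample, and calls against it are not counted. In B2m-null tumours 2 were called: 5 with no filter (S1pr1 in both the CD8 and CD4 gates), 5 with at least 10 cells per mouse (among them S1pr1 and Tcf7 in the CD4 and Klf2 in the regulatory gate), 0 with at least 50 cells, 0 in cells without Mki67 or Top2a, 1 after thinning, 0 with a lane as the unit, and 0 to 4 with 1 mouse or lane left out. Over all genes of the CD8 gate there, the main fit called 762 higher and 572 lower of 11100. It was 1036 and 718 of 19610 with no filter and 429 and 370 of 10751 with at least 50 cells. Without Mki67 or Top2a it was 427 and 378 of 7582, and after thinning 235 and 142 of 6560. With a lane as the unit it was 0 and 1 of 12674. Between genotypes 0 were called: under isotype 1 by DESeq2, 4 with no filter and 0 to 1 with 1 left out; under anti-CD40 3 with no filter and 0 to 2 with 1 left out. For the difference of the changes (0 called) it was 4 with no filter and 0 to 5 with 1 left out. With no filter, of 19610 genes of the CD8 gate, 255 were called higher and 280 lower between genotypes under isotype. It was 351 and 205 under anti-CD40, and 617 and 362 for the difference of the changes. CD4 against CD8 cells (1 called) gave 2 with no filter, 0 without Il2ra or Ikzf2 cells and 3 in cells without Mki67 or Top2a. Of all genes, 503 were called higher and 1277 lower of 19851 with no filter, and 336 and 348 of 6408 in cells without Mki67 or Top2a. Regulatory against CD4 cells (1 called) gave 0 with at least 50 cells, with the stricter gate, without Il2ra or Ikzf2 cells and in cells without Mki67 or Top2a, and 0 to 1 with 1 left out. Of all genes, 82 were called higher and 90 lower of 8634 with at least 50 cells, and 25 and 29 of 6408 in cells without Mki67 or Top2a. Of the 23 partners of Tcf7, 22 passed when adjusted over these alone: 11 when adjusted over all genes (added after seeing the data), 9 at 500 UMIs, 14 in cells without Mki67 or Top2a, where these 2 could not pass, and 18 to 22 with 1 mouse left out. The cause of these shifts was not tested beyond the fewer genes and cells named.

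Signs reversed for differences that had not passed, with Satb1 as the exception. In the CD8 gate in control tumours Bach2 was at -0.20 and Id3 at -0.31 in cells without Mki67 or Top2a, and Id3 at -0.47 after thinning and from -0.62 to 1.13 with 1 left out. In B2m-null tumours Tcf7 was at -0.31 in cells without Mki67 or Top2a and at -0.40 after thinning. With 1 left out there, Tcf7 ran from -0.74 to 1.12, Lef1 from -0.17 to 0.96 (-0.073 in cells without Mki67 or Top2a), Slamf6 from -0.12 to 1.52, Bach2 from -1.28 to 0.36 and Id3 from -1.01 to 0.076. In the CD4 gate under anti-CD40 in control tumours, Slamf6 was at -0.012 in cells without Mki67 or Top2a and from -0.78 to 0.91 with 1 left out, and Id3 was at -1.33 with the stricter gate, at -1.53 in cells without Mki67 or Top2a and from -2.11 to 6.94 with 1 left out. In B2m-null tumours with 1 left out, Slamf6 ran from -1.17 to 0.57, Id3 from -0.82 to 1.69 and Klf2 from -1.51 to 0.88 there. Satb1 between CD4 and CD8 cells, which had passed, was at -0.11 in cells without Mki67 or Top2a. In the CD8 gate between genotypes under isotype, edgeR called 12 higher and 15 lower of 11100 genes, and DESeq2 99 and 123 of 4185.

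Same-numbered pools deviated together at r = 0.0717, 0.432 and 0.386 over 3275 genes. The main fit did not pair pools by number, and whether same-numbered pools share a factor was not tested. With the replicate block, 3 member and gate pairs were called under anti-CD40 in B2m-null tumours (CD8 S1pr1 1.33 and Klf2 1.05, and CD4 S1pr1 2.04) and 0 between genotypes under isotype. The control CD40 pool has no second number, so comparisons with it have no block. Low counts kept Bach2 out of the CD4 and regulatory gate fits with the count filter, and Bach2 and Id3 out of the one between gates.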
